A study of Mus musculus with 6 samples.

Results

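The Dlk1-Dio3 imprinted domain was examined through 6 genes, Dlk1, Meg3, Rtl1, Rian, Mirg and Dio3, out of 23594 genes in the table. They were chosen by gene name, with their levels and fold changes between genotypes already known, so their own differences between genotypes are described here and not tested. RNA was measured in laser-captured tissue from the apical end of the furcation development region (FDR), the part of a molar where the roots part, in mandibular first molars of C57BL/6 mice at PN4.5 (postnatal day 4.5). The 3 control libraries came from mice labelled wild type, and the 3 Lhx6-/- libraries from mice homozygous for a knock-in of CreER at Lhx6 that abolishes the gene, which encodes a LIM homeodomain transcription factor of the dental mesenchyme. Each library combined tissue from 8 molars, controls and mutants were littermates, and both sexes were collected. The labels give no treatment for either group. The counts do not separate the parental alleles, so which copy was transcribed was not measured.

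Imprinted genes are transcribed mainly from the copy inherited from 1 parent. In this domain Dlk1, Rtl1 and Dio3 encode proteins and are transcribed mainly from the paternal chromosome, while Meg3, Rian and Mirg are long noncoding RNAs transcribed from the maternal chromosome, and Rian and Mirg are hosts of small nucleolar RNAs and microRNAs. DNA methylation of an intergenic region between Dlk1 and Meg3 sets which copy is used. Dlk1 is a transmembrane protein with EGF repeats, related to Notch ligands, which holds back differentiation of preadipocytes and other progenitors. Dio3 is the deiodinase that inactivates thyroid hormone, and it is known for high activity in fetal and regenerating tissues.

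The domain lies on chromosome 12 of mm10, where the rows from the start of Dlk1 to the end of Dio3 span 828.3 kb. In order along the chromosome the members are Dlk1 at chr12:109452823-109463336 on the plus strand, Meg3 at chr12:109541001-109571726 on the plus strand, Rtl1 at chr12:109589193-109600330 on the minus strand, Rian at chr12:109603808-109661716 on the plus strand, Mirg at chr12:109729764-109749460 on the plus strand, and Dio3 at chr12:110279068-110281097 on the plus strand. Dio3os, a noncoding gene that is not a member, lies at chr12:110275385-110278172 on the minus strand, 895 bases before Dio3 and pointing away from it. Between the end of Mirg and Dio3os lie 525.9 kb.

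The sequences just upstream of 4 starts are shown because Dio3 and Dio3os, which face away from each other, were the genes of the interval whose level differed most between genotypes, while Dlk1 and Meg3 are the first protein-coding and the first noncoding member of the domain. They are RefSeq sequences of build GRCm38.p6, written 5′ to 3′ on the gene's own strand and ending at the base before the gene start in the deposited table. Capitals mark the GC box GGGCGG or its reverse complement, the motif bound by Sp factors. The stretches are chr12:110278980-110279067 for Dio3, chr12:110278173-110278318 for Dio3os, chr12:109452573-109452822 for Dlk1 and chr12:109540746-109541000 for Meg3.
Dio3: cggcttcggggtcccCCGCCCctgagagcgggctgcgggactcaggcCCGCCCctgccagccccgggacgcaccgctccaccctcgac
Dio3os: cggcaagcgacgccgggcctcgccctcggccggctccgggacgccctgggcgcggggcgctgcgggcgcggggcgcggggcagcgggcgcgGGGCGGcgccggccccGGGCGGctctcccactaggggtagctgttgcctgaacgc
Dlk1: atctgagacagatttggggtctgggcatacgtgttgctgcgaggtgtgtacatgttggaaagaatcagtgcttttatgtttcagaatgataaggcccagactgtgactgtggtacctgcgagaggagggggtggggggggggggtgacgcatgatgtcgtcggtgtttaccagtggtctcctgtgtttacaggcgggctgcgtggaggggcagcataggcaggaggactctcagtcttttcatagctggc
Meg3: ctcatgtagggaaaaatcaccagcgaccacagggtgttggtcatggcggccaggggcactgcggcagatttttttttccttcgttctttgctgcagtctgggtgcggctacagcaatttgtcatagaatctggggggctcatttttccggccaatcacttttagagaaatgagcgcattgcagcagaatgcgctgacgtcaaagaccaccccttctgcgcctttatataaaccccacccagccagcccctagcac

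RefSeq windows of 300 bases around each start, of which the printed stretches are the upstream part, were searched on both strands, for Meg3 in the first of its 2 windows. The window of Dio3 held 4 GC boxes, that of Dio3os held 2, and those of Dlk1 and Meg3 held 0. Of 32817 mouse windows of this length, 35.6% held the motif. The windows of Dio3 and Dio3os held 25 and 53 CG dinucleotides, more than 81.6% and 99.5% of all windows, against 9 in Dlk1 (more than 54.2%) and 13 in Meg3 (more than 62.1%). The TATA box TATAAA occurred 1 time in the window of Dio3, and 13.6% of all windows held it. The window of Meg3 held it 2 times, as overlapping hits on opposite strands at 1 place. The homeodomain core TAATTA, which LIM homeodomain proteins can bind, occurred 0 times in these 4 windows and in 5.3% of all windows.

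The domain also encodes microRNAs, 58 hairpins with 114 mature sequences in RefSeq. None of their symbols (0) has a row in the table, so their levels were not measured. The table instead gives the level of genes in which some of them lie. Mirg holds 14 of the 58 hairpins, Rtl1 7, Rian 3, and Meg3 and Dio3os 1 each. The rest do not lie within a member or Dio3os. The microRNAs of Dio3os and of Rtl1 are shown, since Dio3os was the called noncoding gene of the interval and the 5 microRNAs shown at Rtl1 lie on the strand opposite to it, and so are complementary to its transcript. Of the 13 mature sequences at Rtl1 the other 8 are not shown, and those of miR-3071 lie on the strand of Rtl1 itself. They are RefSeq mature sequences, 5′ to 3′, with the seed (bases 2 to 8), the part that pairs with targets, in capitals. Those of Dio3os lie on its own strand.
mmu-miR-1247-5p: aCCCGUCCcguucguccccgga
mmu-miR-1247-3p: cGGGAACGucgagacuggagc
mmu-miR-431-5p: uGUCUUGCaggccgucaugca
mmu-miR-433-3p: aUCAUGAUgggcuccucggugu
mmu-miR-127-3p: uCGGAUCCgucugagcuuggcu
mmu-miR-434-3p: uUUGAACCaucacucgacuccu
mmu-miR-136-5p: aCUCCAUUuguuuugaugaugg
These 7 microRNAs have 7 distinct seeds, so no pair of them forms a seed family.

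The libraries held between 60132323 and 76157433 estimated counts. Levels are in CPM, counts per 1000000 estimated counts of the library after the filter and scaling described below. Lhx6, the targeted gene, had a level of 27.8, 18.2 and 21.9 CPM in the 3 control libraries. In the 3 Lhx6-/- libraries it was at 12.8, 9.82 and 10.5 CPM. The groups did not overlap, and the log2 fold change was -1.04 (standard error, SE, 0.16; edgeR adjusted p = 0.0210). The adjusted p was over 0.05 in 4 of 18 alternative fits, namely with a Y-linked covariate (log2 fold change -0.58, edgeR adjusted p = 0.109) and without Lhx6-/- replicate 2 (adjusted p = 0.110), control replicate 3 (0.111) or Lhx6-/- replicate 3 (0.0772). Markers of other cells moved between the groups. The 12 markers of dental epithelium summed to 1108 to 1748 CPM in control and 768 to 918 CPM in Lhx6-/- libraries, all 12 had a lower mean in Lhx6-/- tissue, and the keratin genes Krt5, Krt14 and Krt17 fell past the rule defined below. The 7 endothelial markers summed to 248 to 261 CPM in control and 291 to 350 CPM in Lhx6-/- libraries, with Cldn5 and Vwf higher past the rule, and the 5 pericyte markers to 354 to 381 and 450 to 555 CPM, with Rgs5 higher past it. The 12 mesenchymal markers summed to 68750 to 89233 and 81538 to 88855 CPM, with Dlx1 higher past the rule. Of these 12, 11 had a log2 fold change above 0 and 1 below. With edgeR 7 had an unadjusted p under 0.05, all higher, against 9.81% of all genes. The groups did not overlap for 8, against 15.5% of all genes. The 8 ameloblast markers summed to 140282 to 149590 and 120436 to 152327 CPM, with Amtn lower at an adjusted p of 0.0210 (edgeR). The 4 Y-linked genes summed to 14.6 to 58.0 CPM in control and 55.1 to 92.1 CPM in Lhx6-/- libraries. No marker of these lists was at 0 in every library.

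All 6 members were measured and passed edgeR's filter on low counts, as did 20114 genes of the table in all. Dio3 was the member with the largest difference between genotypes, 2.6-fold higher in Lhx6-/- tissue. Dlk1 was higher in every Lhx6-/- library than in every control library, but by less, 1.23-fold. The other 4 members had group means that differed by 1.01-fold to 1.26-fold, and their groups overlapped. By the rule of the study's methods, a fold of 1.5 or more together with an unadjusted p below 0.05, 1 of 6 members was called, where 3.28% of all 20114 genes were called (317 higher and 343 lower). At an adjusted p under 0.05, 1 of 6 was called, against 0.403% of all genes. The groups did not overlap for 2 of 6, against 15.5% of all genes. The members' median log2 fold change was 0.24 and all 6 were above 0, while 49.7% of all tested genes were above 0. The lowest, Mirg, was at 0.01 with an SE of 0.12. Because the members were chosen with these values known, nothing follows from these shares or from the shared sign. In pooled tissue a change in the number of cells that express a gene and a change in RNA per cell cannot be told apart.

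**Figure D1:**
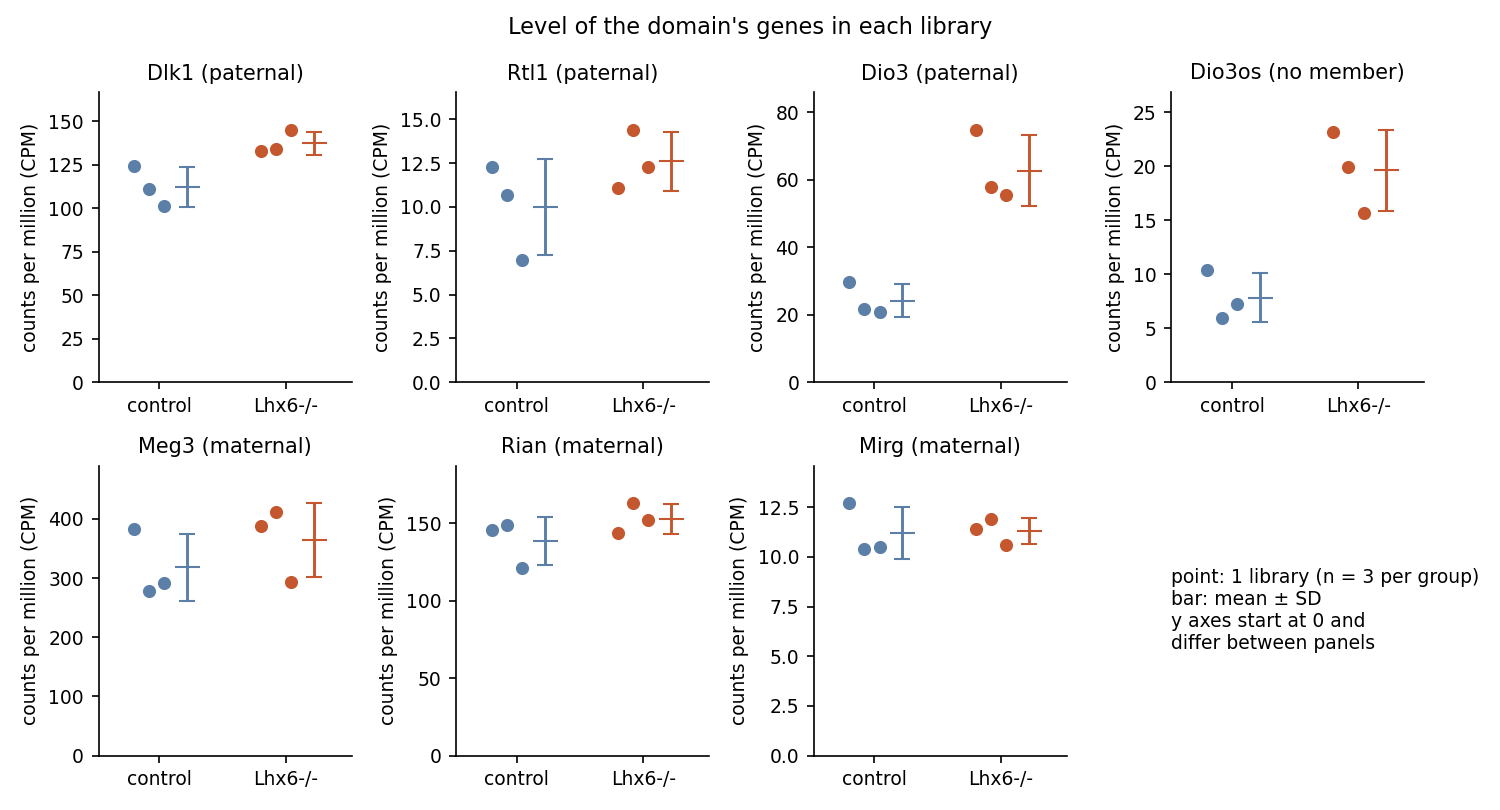
CPM (y axis, from 0) of the 6 members and of Dio3os in each library, by group (x axis); points are single libraries and bars are the mean ± SD of 3. Dio3 and Dio3os sit apart between the groups (20.9 to 29.7 against 55.6 to 74.8 CPM for Dio3), Dlk1 is apart by a small gap, and the groups of the other 4 genes overlap.

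Of the paternally expressed genes, Dio3 was at 29.7, 21.8 and 20.9 CPM in control replicates 1, 2 and 3, and at 74.8, 57.8 and 55.6 CPM in Lhx6-/- replicates 1, 2 and 3. These came from 1236 to 1847 estimated counts per control library and 4139 to 4573 per Lhx6-/- library. The lowest Lhx6-/- library therefore lay well above the highest control library. Control libraries had a mean of 24.1 CPM with an SD of 4.83, and Lhx6-/- libraries a mean of 62.8 CPM with an SD of 10.5 (n = 3 each). The log2 fold change was 1.38 with an SE of 0.16.

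The log2 fold change of Dio3 lay between 1.12 and 1.67 in 18 alternative fits. The count of 1 member at an adjusted p under 0.05 became 0 without control replicate 2 (log2 fold change of Dio3 1.31) and without control replicate 3 (1.29), and as Dio3 was chosen with these values known, the counts are a description. The lowest value came with the level of dental epithelium markers as a covariate (1.12) and the highest with that of Y-linked genes (1.67). Whether the endothelial, pericyte and mesenchymal levels had a part in the difference was not tested.

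Dlk1 was at 124, 111 and 101 CPM in control and at 133, 134 and 145 CPM in Lhx6-/- libraries. All Lhx6-/- libraries lay above all control libraries, the gap between them being smaller than the range within control. The mean was 112 ± 11.7 CPM in control and 137 ± 6.89 CPM in Lhx6-/- tissue (SD, n = 3 each), and the log2 fold change was 0.29 with an SE of 0.08. In the alternatives it ran from 0.23 to 0.38 and never met the fold and p rule.

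Rtl1, a gene derived from a retrotransposon and needed in the placenta, was low. Its level was 12.3, 10.7 and 7.0 CPM in control and 11.1, 14.4 and 12.3 CPM in Lhx6-/- libraries, and 1 control library lay below the other 5. Its log2 fold change was 0.33 with an SE of 0.19, and ran from 0.13 to 0.51 over the alternatives. The sources used here do not say whether counting used strand, so reads of Rtl1 and of the microRNA precursor on the opposite strand may have been counted together.

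Of the maternally expressed noncoding RNAs, Meg3 was the most abundant in CPM. It stood at 383, 279 and 292 CPM in control and at 388, 411 and 294 CPM in Lhx6-/- libraries. Each group held both high and low libraries, with control replicate 1 and Lhx6-/- replicates 1 and 2 at 383 to 411 CPM and the other 3 libraries at 279 to 294 CPM. The log2 fold change was 0.20 with an SE of 0.15, and it ran from 0.02 with the epithelial covariate to 0.45 with the Y-linked covariate.

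Rian, the host of a large group of box C/D small nucleolar RNAs, was at 146, 149 and 121 CPM in control and at 144, 163 and 152 CPM in Lhx6-/- libraries. The groups overlapped, and the low value of control replicate 3 widened the control range. For Rian the log2 fold change was 0.14 with an SE of 0.09, and it ran from -0.02 to 0.22 over the alternatives.

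Mirg, the host of the microRNA cluster downstream of Rian, was at 12.7, 10.4 and 10.5 CPM in control and at 11.4, 11.9 and 10.6 CPM in Lhx6-/- libraries. The Lhx6-/- values lay inside the control range, and the means of 11.2 ± 1.3 and 11.3 ± 0.657 CPM (SD, n = 3) differed by less than either spread. The log2 fold change was 0.01 with an SE of 0.12, and took either sign over the alternatives, from -0.09 to 0.15.

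Summed over a library, the 3 paternally expressed members gave 166, 143 and 129 CPM in control and 219, 206 and 213 CPM in Lhx6-/- libraries, and the groups did not overlap. The 3 maternally expressed members gave 542, 438 and 423 CPM in control and 543, 586 and 457 CPM in Lhx6-/- libraries, and the groups overlapped. The sums follow the most abundant genes of each side, so Dlk1 and Dio3 made up most of the first sum and Meg3 most of the second.

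Dio3os, which the choice of members did not use, moved with Dio3. Its level was 10.4, 5.91 and 7.20 CPM in control and 23.2, 19.9 and 15.7 CPM in Lhx6-/- libraries. The groups did not overlap, and control replicate 1 and Lhx6-/- replicate 1 were highest in their groups for both genes. The mean rose from 7.83 ± 2.29 to 19.6 ± 3.79 CPM (SD, n = 3 each). The log2 fold change was 1.32 with an SE of 0.21, and the edgeR adjusted p over all 20114 genes was 0.0429. It met the fold and p rule in 18 of 18 alternatives, with a log2 fold change between 0.94 and 1.90. The adjusted p was over 0.05 in 5 of these, which were upper-quartile scaling (edgeR adjusted p = 0.0614) and the fits that left out Lhx6-/- replicate 1 (0.131), Lhx6-/- replicate 2 (0.134), control replicate 2 (0.0528) or control replicate 3 (0.259). The epithelial covariate gave the lowest of these values, 0.94, at an edgeR adjusted p of 0.0317.

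Within a library, the ratio of Dio3os to Dio3 was 34.9, 27.1 and 34.5 counts of Dio3os per 100 counts of Dio3 in control, and 31.0, 34.4 and 28.1 in Lhx6-/- libraries. The groups overlapped, with means of 32.2 ± 4.36 and 31.2 ± 3.11 (SD, n = 3). Both levels were higher in Lhx6-/- tissue, and their ratio stayed in 1 range. The annotated genes do not overlap, but without known strand, transcripts that run past the annotated starts cannot be assigned to either gene.

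The ratio of Dio3 to Dlk1, the members at the ends of the domain, was 23.9, 19.6 and 20.7 counts of Dio3 per 100 of Dlk1 in control and 56.4, 43.1 and 38.3 in Lhx6-/- libraries. All Lhx6-/- values were above all control values. The ratio of Dio3 to Meg3 was 7.74, 7.79 and 7.16 per 100 in control and 19.3, 14.0 and 18.9 in Lhx6-/- libraries, also without overlap. The 3 control values of that ratio had an SD of 0.352 around a mean of 7.56, and the 3 Lhx6-/- values an SD of 2.92 around 17.4. The other ratios read between members were Rtl1 to Dlk1, Mirg to Rian, and Rian, Mirg and Dlk1 to Meg3. These overlapped between groups, and the remaining pairs of members were not read. Rtl1 was at 6.93 to 9.93 counts per 100 of Dlk1 in control and 8.39 to 10.8 in Lhx6-/- libraries, and Rian at 38.0 to 53.2 per 100 of Meg3 in control and 37.1 to 51.5 in Lhx6-/- libraries. Mirg was at 3.31 to 3.72 per 100 of Meg3 in control and 2.89 to 3.60 in Lhx6-/- libraries.

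**Figure D2:**
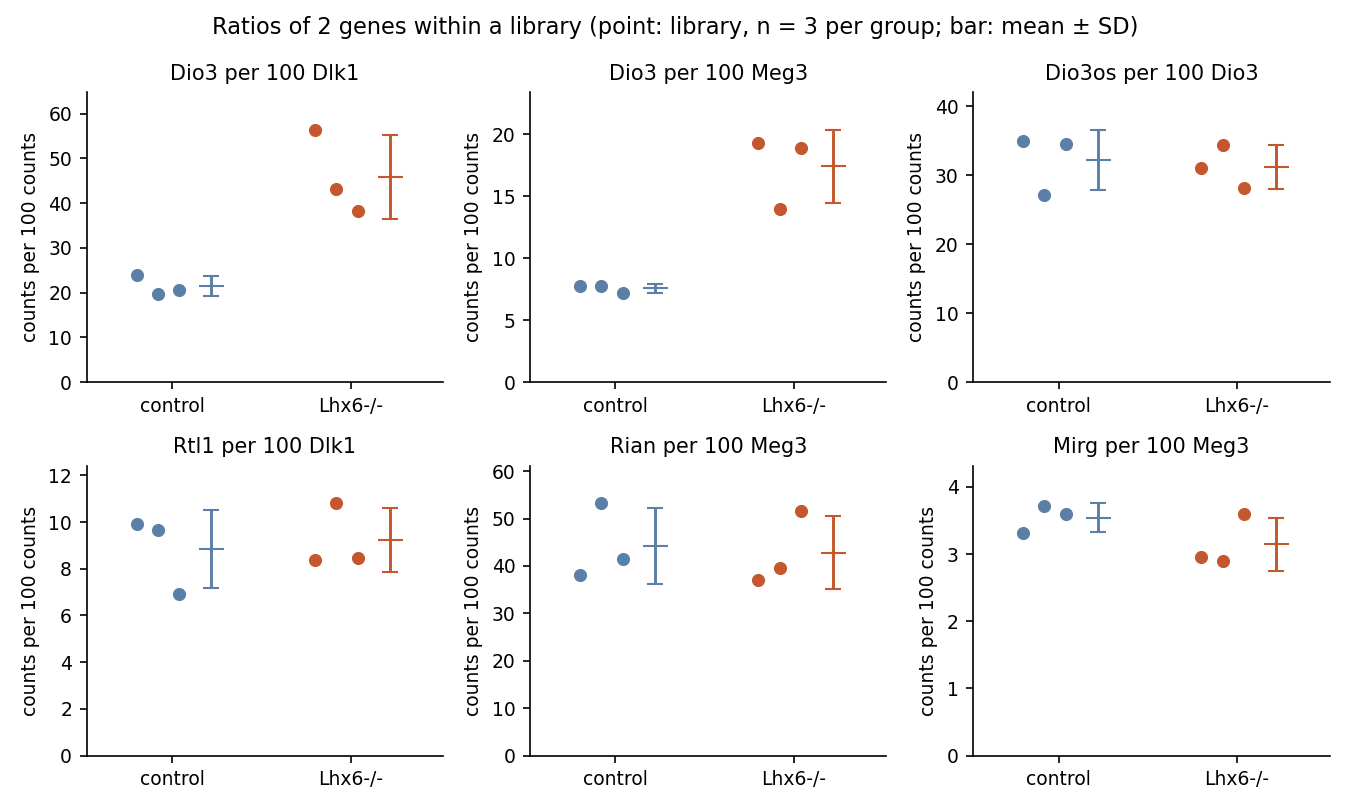
Counts of 1 gene per 100 counts of another in the same library (y axes, from 0) by group (x axis); points are libraries and bars the mean ± SD of 3. The ratios of Dio3 to Dlk1 and to Meg3 separate the groups, while Dio3os to Dio3 (means 32.2 and 31.2) and the other 3 ratios overlap.

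Levels were compared between genes as CPM per kb of exon, using the union of exons in GENCODE vM21, which fits the table's starts except for Rian. In control tissue the order of the mean levels was Dlk1 (19.8 ± 2.07 CPM per kb), Meg3 (17.6 ± 3.14), Dio3 (11.9 ± 2.38), Rian (7.59 ± 0.836), Dio3os (4.65 ± 1.36), Rtl1 (1.58 ± 0.430) and Mirg (1.54 ± 0.178), each with its SD over 3 libraries. Dlk1 and Meg3 overlapped in range, as did Rtl1 and Mirg, and the other neighbours did not. In Lhx6-/- tissue Dio3 led with 30.9 ± 5.19 CPM per kb, ahead of Dlk1 (24.3 ± 1.22) and Meg3 (20.2 ± 3.43). Dio3os (11.6 ± 2.25) stood above Rian (8.38 ± 0.529) there, and Rtl1 (1.99 ± 0.265) above Mirg (1.55 ± 0.0901). No neighbours in this second order overlapped in range. Dio3 thus moved from the third to the first place and Dio3os passed Rian, both without overlap of the genes concerned in either genotype.

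Apart from the members and Dio3os, the interval held 6 rows, of which 3 passed the filter. Their levels were low. Gm37899 and B830012L14Rik, transcribed on the plus strand between Rian and Mirg, were at 0.152 to 0.289 and 0.359 to 0.739 CPM in control and at 0.161 to 0.540 and 0.443 to 1.10 CPM in Lhx6-/- libraries. Their log2 fold changes were 0.52 (SE 0.75) and 0.51 (0.52), with adjusted p-values of 0.898 and 0.833 from edgeR. Their annotated spans overlap in part, and reads from the shared stretch cannot be told apart. Gm3379, a processed pseudogene, was at 0.482 to 0.981 and 0.213 to 0.645 CPM, with a log2 fold change of -0.61 (SE 0.53, edgeR adjusted p = 0.801). Gm34081, 3110009F21Rik and 4930425K24Rik had at most 12 counts in any library and were not tested.

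The 20 nearest rows outside the interval, 10 on each side, were read as neighbours of the domain. None of the 18 that passed the filter met the fold and p rule (0 of 18 by edgeR, DESeq2 and limma, against 3.28% of all genes), and 1 had an unadjusted p under 0.05, against 9.81% of all genes (Hsp90aa1, a heat shock protein gene, with a log2 fold change of -0.21 and an adjusted p of 0.372 from edgeR). The next smallest p belonged to Slc25a47, with a log2 fold change of 0.50 (SE 0.24, edgeR adjusted p = 0.550). Their median log2 fold change was 0.06. The nearest tested gene before Dlk1 was Begain, 385 kb away, at 11.0, 8.10 and 7.78 CPM in control and 12.4, 10.7 and 9.54 CPM in Lhx6-/- libraries (log2 fold change 0.28, SE 0.16, edgeR adjusted p = 0.627). The nearest after Dio3 was Ppp2r5c, 166 kb away, a subunit of protein phosphatase 2A, at 80.2, 87.2 and 84.1 CPM in control and 77.1, 78.0 and 85.4 CPM in Lhx6-/- libraries (log2 fold change -0.06, SE 0.07, edgeR adjusted p = 0.849). Both overlapped between groups. The rule was met by 2 flanking genes, Slc25a47 and Wdr25, without control replicate 1, by 2, Wdr25 and Gm35558, with the Y-linked covariate, and by Gm35558 without control replicate 3.

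**Figure D3:**
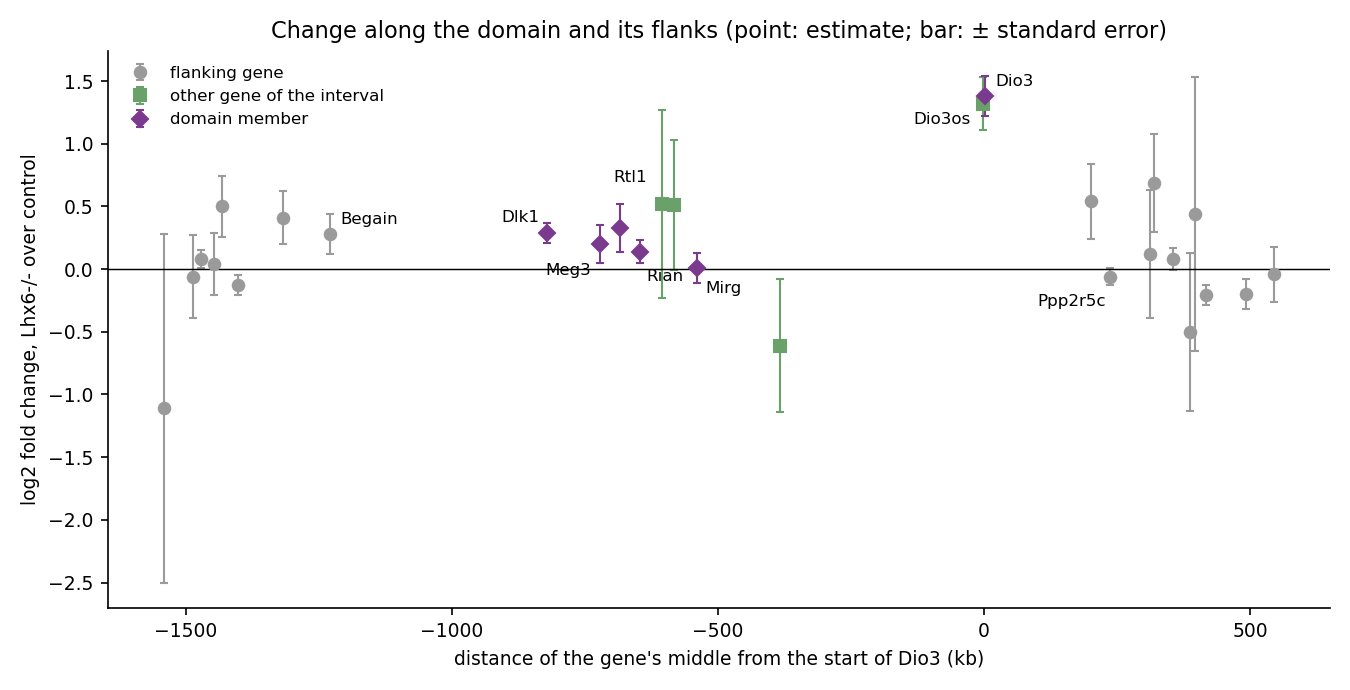
Log2 fold change of Lhx6-/- over control (y axis, points with bars of ± 1 SE) against the distance of each gene's middle from the start of Dio3 in kb (x axis), for members, other tested genes of the interval and flanking genes. Dio3 and Dio3os stand at 1.38 and 1.32 at the right end of the domain, the other members lie between 0.01 and 0.33, and the genes with long bars have few counts.

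The other imprinted genes of the mouse were read from a list of 50, of which 47 were in the table and 45 passed the filter. The rule was met by 0 of 45 by edgeR, DESeq2 and limma (3.28% of all genes). An adjusted p under 0.05 was reached by 0 with edgeR and limma and by 2 with DESeq2 (H19, the noncoding RNA next to Igf2, and Zim1), and 9 had an unadjusted p under 0.05 with edgeR, 8 higher and 1 lower, where 9.81% of all genes did. Of the 45, 32 had a log2 fold change above 0, the groups did not overlap for 13 (15.5% of all genes), and the median was 0.08. Zim1, a zinc finger gene of the Peg3 domain, was at 29.4, 22.4 and 25.6 CPM in control and 40.0, 40.2 and 31.7 CPM in Lhx6-/- libraries, without overlap, with a log2 fold change of 0.53 (SE 0.12, edgeR adjusted p = 0.112). Ndn, which encodes necdin, was at 30.1, 26.3 and 23.8 CPM and 33.5, 33.2 and 33.0 CPM, also without overlap (log2 fold change 0.31, SE 0.09, edgeR adjusted p = 0.255). The list ran from -0.54 to 0.71, and Dio3 was at 1.38. As Dio3 was chosen with its value known, its place above that range is a description and not a test. With the Y-linked covariate 5 genes met the rule (Kcnq1ot1, Zim1, Snrpn, Airn and Mcts2), and in 7 other alternatives 1 gene did.

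Of 20 factors that maintain imprints or the methylation of DNA and histones, 19 were in the table and 18 passed the filter. None met the rule (0 of 18 by edgeR, DESeq2 and limma, against 3.28% of all genes). An unadjusted p under 0.05 with edgeR was found for 2 of 18, against 9.81% of all genes. These were Aff3, which binds the control region of this domain, at 12, 9.70 and 11.2 CPM in control and 14.7, 15.2 and 12.8 CPM in Lhx6-/- libraries (log2 fold change 0.38, SE 0.12, edgeR adjusted p = 0.295), and Dnmt3b, a DNA methyltransferase, at 4.10, 3.89 and 4.29 CPM and 4.84, 5.20 and 6.13 CPM (log2 fold change 0.40, SE 0.17, edgeR adjusted p = 0.478). The groups did not overlap for 4 of 18, these 2 among them, against 15.5% of all genes. The median of the list was 0.05. With the Y-linked covariate Zfp57 and Aff3 met the rule, and with the epithelial covariate Tet1 did.

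Dio3 acts on thyroid hormone, whose transporters, receptors and targets were read as a list of 17 genes, 16 of them tested. The rule was met by 0 of 16 by edgeR, DESeq2 and limma, where 3.28% of all genes met it. With edgeR 2 had an unadjusted p under 0.05, against 9.81% of all genes, and for 2 of 16 the groups did not overlap, against 15.5%. Slc7a8, an amino acid transporter that also carries thyroid hormone, was at 48.0, 51.9 and 52.6 CPM in control and at 44.8, 46.9 and 43.1 CPM in Lhx6-/- libraries, without overlap (log2 fold change -0.18, SE 0.07, edgeR adjusted p = 0.441). Dio2, the deiodinase that activates the hormone, was at 5.13, 8.44 and 7.79 CPM in control and at 6.11, 7.75 and 9.14 CPM in Lhx6-/- libraries, and was named after its values were seen. The list's median log2 fold change was 0.03. Slco1c1, a transporter with at most 19 counts in a library, had the list's highest log2 fold change, 1.49 (SE 1.21, edgeR adjusted p = 0.773). It met the rule with the Y-linked covariate and without control replicate 1.

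Notch receptors, ligands and targets were read because Dlk1 is related to Notch ligands. Of 21 genes 19 were tested, 15 had a log2 fold change above 0, and the median was 0.09. The rule was met by 0 of 19 by edgeR, DESeq2 and limma, where 3.28% of all genes met it. An unadjusted p under 0.05 was reached by 5, all higher, with edgeR (9.81% of all genes), and 5 of 19 did not overlap between groups (15.5% of all genes). DESeq2 gave an adjusted p under 0.05 for 1, Notch1, and edgeR and limma for 0. Notch1, a receptor, was at 49.0, 45.3 and 47.7 CPM in control and at 61.0, 57.9 and 55.3 CPM in Lhx6-/- libraries (log2 fold change 0.29, SE 0.07, edgeR adjusted p = 0.151). Heyl, a target gene, was at 40.4, 38.2 and 43.7 CPM and at 53.5, 46.9 and 51.0 CPM (log2 fold change 0.31, SE 0.08, edgeR adjusted p = 0.194). Both were without overlap. Endothelial and pericyte markers, whose sums are given above, moved in the same direction, and Notch3 is on both the pericyte and the Notch list. Their part in these differences was not tested. With the Y-linked covariate Notch3 met the rule.

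**Figure D4:**
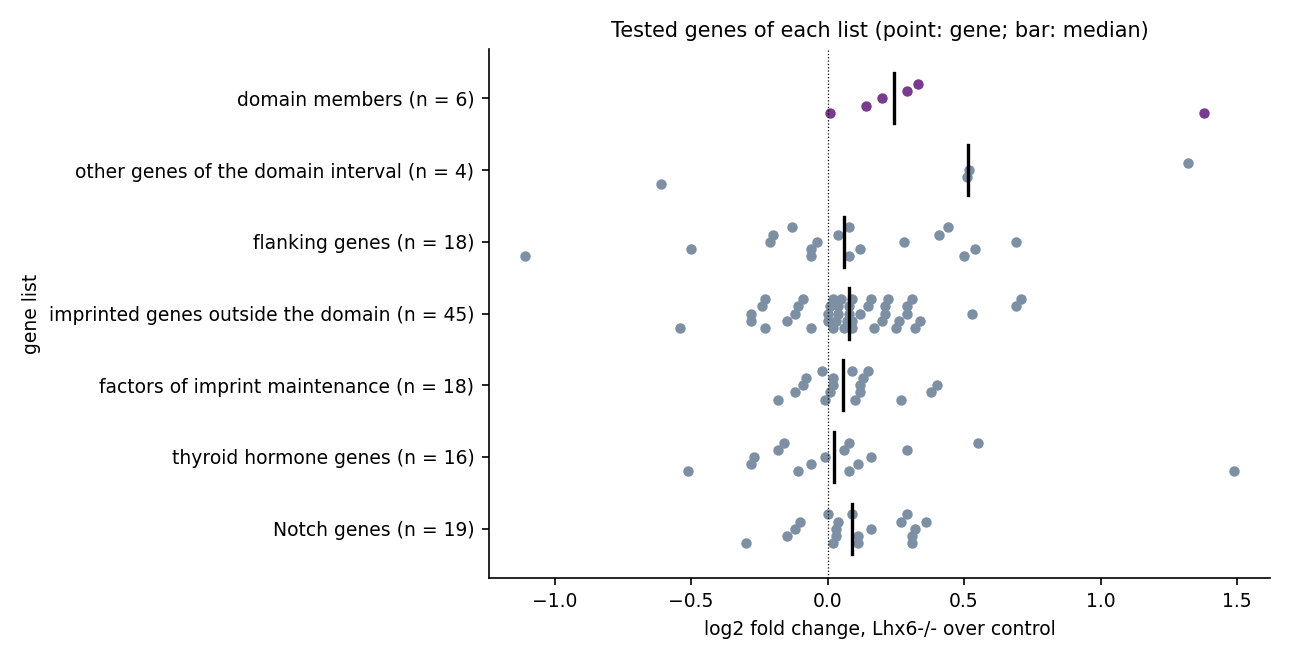
Log2 fold change of Lhx6-/- over control (x axis) for the tested genes of each list (y axis); points are genes and the bar is the list's median. Dio3 and Dio3os are the far points of the first and second rows. The far point of the thyroid hormone row is Slco1c1, at 1.49 from few counts. The medians of the 4 lists outside the chromosomal region lie between 0.03 and 0.09.

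Across the 6 libraries, the genes whose level was most like that of Meg3 were Slc38a9, Trim39, Zfp28, Ddhd2 and Ppp1r26, with Pearson r from 0.986 to 0.998 on log2 CPM among 9479 genes of at least 10 CPM on average. The value is a description, since the closest of many genes were picked and the 6 libraries share their genotype groups. Slc38a9, a lysosomal amino acid transporter, was at 22, 17.6 and 18.1 CPM in control and at 22.3, 23.6 and 18.5 CPM in Lhx6-/- libraries, so that the same 3 libraries as for Meg3 were high. Among the members, Mirg was nearest to Meg3 (r = 0.886, number 240 of 9479) and Rian farthest (r = 0.444, number 2441). The genes most like Dlk1 were Bace1, Dysf, Itpkb, Trib2 and Oxa1l, with r from 0.979 to 0.987. Bace1, a secretase, was at 63.3, 60.6 and 54.3 CPM in control and at 69.2, 70.7 and 74.6 CPM in Lhx6-/- libraries. Among the members, Dio3 (r = 0.876, number 171) and Rtl1 (r = 0.818, number 335) were nearest to Dlk1, and Mirg farthest (r = 0.354, number 2666).

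The alternatives moved the members by different amounts. Dio3 and Dio3os moved most, when 1 library was left out or a covariate was added, and their log2 fold changes stayed at 0.94 or above. Rian with the Y-linked covariate, and Mirg in 4 alternatives, had a log2 fold change below 0. For the other members it stayed above 0 in 18 of 18.

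**Figure D5:**
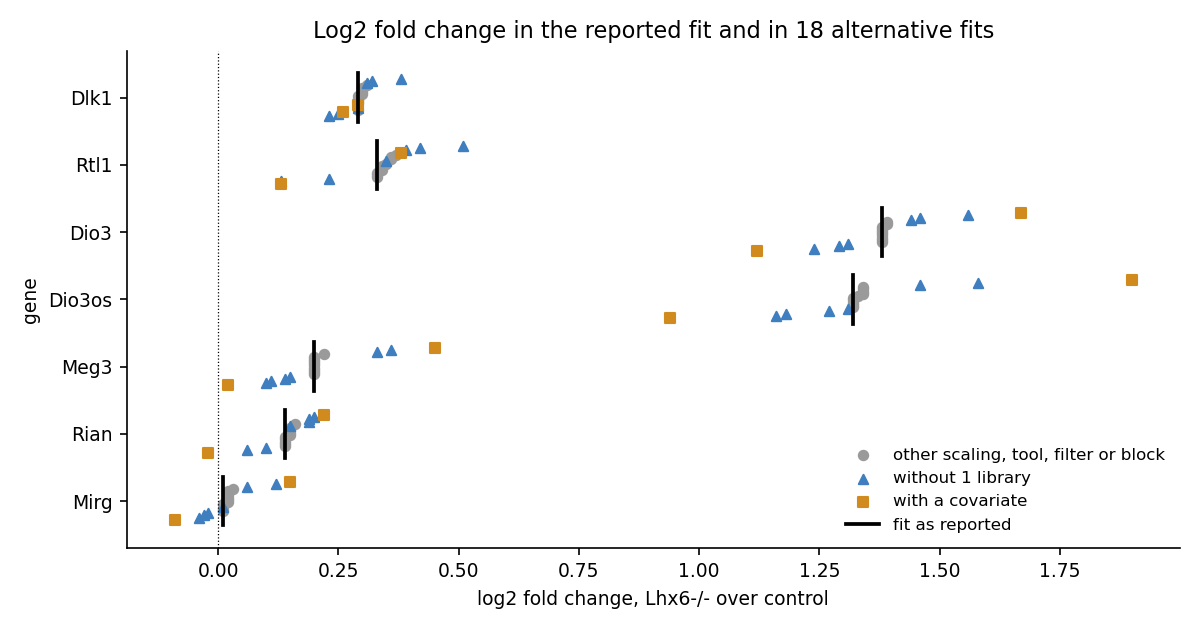
Log2 fold change of Lhx6-/- over control (x axis) of each gene (y axis) in the reported fit (black bar) and in 18 alternative fits, marked as fits without 1 library, with a covariate, or with another scaling, tool, filter or block. Dio3 (1.12 to 1.67) and Dio3os (0.94 to 1.90) stay apart from the other 5 genes, whose values lie between -0.09 and 0.51.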

How the data were processed

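RNA was sequenced as single-end reads of 75 cycles from 12 µm sections captured by laser. Per the paper's methods and the labels, reads were trimmed, mapped to mm10 by STAR 2.6.1d and quantified per gene in Partek; the counter, the gene annotation and strandedness are not given in the sources used here. The authors deposited the estimated counts unnormalized, for 23594 genes in each library, each gene reaching at least 10 in some library. A second deposited table holds gene names, coordinates, another total of counts, used only to check the order of the genes (largest relative deviation 1.14e-07), and the authors' own ratios, fold changes and p-values, which were not used. Libraries were grouped by genotype from the sample titles.

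The 6 members and all lists were chosen with earlier results of these data known. Estimated counts were rounded, scaled by TMM (factors 0.977 to 1.04) and tested with edgeR 4.0.16 (quasi-likelihood, robust dispersion, genotype alone, two-sided) in R 4.3.3; 20114 genes passed edgeR's default filter, and p-values were adjusted by Benjamini-Hochberg over all of them. The biological coefficient of variation was 0.202. In CPM, a gene's rounded count was divided by the library's TMM factor times its total over the genes that passed the filter. The code was tested on simulated counts. The 3 libraries of a group differed by far more than counting error, which set the precision. The labels do not say which animals each pool came from, so p-values measure the spread between these libraries. With 3 libraries against 3, an exact permutation test cannot go below 0.1, so single genes were read from the fit across all genes. The paper speaks of 3 pairs of samples, but the sources do not say which libraries form a pair. Libraries of the same replicate number did not deviate together (correlations of deviations 0.026, -0.029 and -0.031). Other matchings were not examined, so a pairing of the libraries is not excluded.

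Genes named were Lhx6, the members, tested genes of the interval, genes of each list past a threshold or else its 2 smallest p-values, the 5 most like Meg3 and Dlk1, and the nearest tested flanking genes; some genes that this names are not reported here. Lists covered imprinted genes, imprint maintenance, thyroid hormone, Notch, preadipocytes, the Rtl family, cell type markers, Y-linked and cell cycle genes. The alternatives were 3 scalings, DESeq2 1.42.0, limma 3.58.1 trend with prior counts of 2 and 0.5, 2 filters, non-robust dispersion, a replicate block, 2 covariates, a stricter threshold and leaving out each library. RefSeq promoter windows and microRNAs were matched by symbol. Figures were drawn with matplotlib 3.10.9.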

Additional observations from a re-analysis of the deposited data

How the results depend on the processing

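The counts of 1 of 6 members, a description, and of 1 other gene of the interval past the fold and p rule were the same in all alternatives, the stricter threshold included, and each time the genes were Dio3 and Dio3os. The genes past that rule in the whole table numbered 660, 1241 with the Y-linked covariate and 152 at 2-fold and p under 0.01. The genes with an adjusted p under 0.05 numbered 81, 315 with DESeq2, 359 with the Y-linked covariate, and 12 (without control replicate 3) to 127 (without control replicate 1) when a library was left out. With the replicate block, in which the numbers share only a number, there were 134, and the log2 fold change was 1.38 for Dio3 and 1.34 for Dio3os (adjusted p = 0.00095 from edgeR). The Y-linked covariate gave 2 flanking genes, 5 imprinted genes outside the domain, 2 factors of imprint maintenance, 1 thyroid hormone gene and 1 Notch gene past the rule, where the reported fit gave 0 of each. The epithelial covariate gave 1 imprinted gene and 1 factor of imprint maintenance, the replicate block 1 imprinted gene (Calcr), and non-robust dispersion 1 preadipocyte gene (Fabp4). Leaving out a library gave 0 to 2 flanking genes, 0 to 1 imprinted genes, 0 to 1 thyroid hormone genes and 0 to 2 preadipocyte genes past the rule, and 0 to 1 Rtl family genes. The 1 Rtl family gene became 0 with at least 10 counts in every library, with the epithelial covariate and at the stricter threshold. Values reversed for genes of no call: with the epithelial covariate B830012L14Rik was at -0.21, Gm37899 at -0.36 and Ppp2r5c at 0.00 on the log2 scale, and without a library Gm37899 ran from -0.26 (without Lhx6-/- replicate 1) to 0.87 (without control replicate 1). The cause was not tested. The tested rows of the interval with few counts had wide SEs, from 0.52 (B830012L14Rik) to 0.75 (Gm37899).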

Other observations

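The Rtl family, genes derived from the same kind of retrotransposon as Rtl1, had 9 tested members besides it. Rtl9, on chromosome X, met the fold and p rule, with 0.305, 0.224 and 0.0845 CPM in control and 0.900, 0.430 and 0.497 CPM in Lhx6-/- libraries (log2 fold change 1.56, SE 0.63, edgeR adjusted p = 0.441). Its counts were low, and 3.28% of all genes met the rule. Rtl3 was named after its values were seen, and was at 6.54, 5.01 and 6.41 CPM in control and 8.02, 8.46 and 7.70 CPM in Lhx6-/- libraries (adjusted p = 0.347 from edgeR).

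Preadipocyte genes were read because Dlk1 marks these cells. The rule was met by 0 of 11 with edgeR, DESeq2 and limma, where 3.28% of all genes met it, and 0 had an unadjusted p under 0.05 with edgeR, where 9.81% of all genes did. Ebf1 and Ebf2, transcription factors of adipocyte precursors, had log2 fold changes of 0.16 (adjusted p = 0.621) and 0.46 (adjusted p = 0.639 from edgeR). Fabp4 and Adipoq, genes of mature adipocytes, were named after their values were seen. Fabp4 was at 59.5, 109 and 79.3 CPM in control and at 74.2, 51.9 and 36.1 CPM in Lhx6-/- libraries, and Adipoq at 16, 26.5 and 25.0 CPM and at 20.9, 16.2 and 10.1 CPM.

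For the other lists, the shares of all genes to read beside the counts are 3.28% past the rule and 9.81% at an unadjusted p under 0.05. The 8 muscle markers summed to 1282 to 1616 CPM in control and 1366 to 2062 CPM in Lhx6-/- libraries, with 0 of 8 past the rule by edgeR, DESeq2 and limma and 1 at an unadjusted p under 0.05. The 8 markers of odontoblasts and bone had 0 past the rule by the same tools and 2 at an unadjusted p under 0.05, as did the 8 of follicle and periodontal ligament. Of the 8 blood and immune markers Alas2 and Hba-a1 fell past the rule with edgeR, and of the 7 nerve and glia markers Snap25 did. Kdm5d was the Y-linked gene past the rule with edgeR. All 10 cell cycle genes had a lower mean in Lhx6-/- tissue, with a median log2 fold change of -0.20, 0 past the rule by edgeR, DESeq2 and limma and 3 at an unadjusted p under 0.05.

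A set of 8 long RNAs described as largely nuclear was read after the levels of Meg3 had been seen. Over the 6 libraries their Pearson r with Meg3 on log2 CPM ran from -0.046 (Malat1) through 0.812 (Neat1) to 0.864 (Airn). Kcnq1ot1 was at 94.0, 53.4 and 82.9 CPM in control and at 110, 96.7 and 75.6 CPM in Lhx6-/- libraries. These values are a description, as the libraries share their genotype groups.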
